A study of Solanum lycopersicum and Solanum tuberosum and Capsicum annuum and Nicotiana tabacum with 10 samples.

Results

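Glyceraldehyde-3-phosphate dehydrogenase (GAPDH) is the enzyme that oxidizes glyceraldehyde-3-phosphate in the middle of glycolysis. Plants hold a cytosolic form that works in glycolysis and plastid forms, some of which run the reverse reaction in the Calvin cycle. Its transcript is abundant in most tissues and is often used as a reference gene.

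GAPDH was represented on the potato cDNA microarray by 8 clones, each printed as 2 spots, out of 15360 clone positions and 32448 spots in all. They were all the spots whose gene symbol in the probe table is exactly GAPDH, and all carried the same potato gene identifier, 102577868. The symbol does not say whether a clone encodes the cytosolic or a plastid form. The clones were named A to H in the order of their spot numbers: clone A (spots 137347 and 139206), clone B (145319 and 146163), clone C (145759 and 146603), clone D (148101 and 148945), clone E (151485 and 152329), clone F (154312 and 155156), clone G (158500 and 159344) and clone H (159415 and 160259). They are cDNA copies made from potato transcripts and are not replicates of each other, because they share the gene, the array and the RNA extract. Clone sequences were not used here, so how far the clones overlap, and which part of the transcript each covers, was not analysed. A cDNA probe can also bind transcripts of related gene copies.

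Mature leaf RNA of 5 query species, tomato, pepper, tobacco, Nicotiana benthamiana and petunia, was hybridized on 10 arrays, 2 per species, each time against mature leaf RNA of potato as the reference sample. All plants were untreated and grown at 25°C with 16 h of light and 8 h of dark for 4 to 6 weeks. The query sample always carried Cy3 and the potato reference Cy5, with no dye swap, and 1 potato extract served all replicate 1 arrays while a second extract served all replicate 2 arrays. Whether the extracts of replicates 1 and 2 came from different plants is not in the labels. The p-values therefore cover the spread between these arrays alone, and that spread may be technical.

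Each value is the log2 ratio of the 2 channels, averaged over the 2 spots of a clone. No source used here states which channel is the numerator, and a positive value is taken as likely brighter in potato, since the array titles name potato first. On this scale 1 is a 2-fold difference. Higher and lower below refer to this ratio, so on that reading a higher ratio is a dimmer signal of the query species relative to potato, and with the sign turned a brighter one. A positive ratio can stand for less GAPDH transcript in the query species, for weaker binding of its transcript to the potato probe or for a gene-specific dye effect, and these cannot be told apart here. Between query species the potato channel and the dye cancel, while binding does not.

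Of the 80 combinations of clone and array, 74 had a value, 73 of them from both spots. Clones A, C and F had no value at either spot on tomato replicate 1 and on N. benthamiana replicate 2. Among all clones, 48 showed exactly this pattern, and 8009 had a value on each of the other 8 arrays. The single-spot value was clone G on tobacco replicate 2. Duplicate spots of a GAPDH clone differed by a median of 0.118 and at most by 0.328 on the log2 scale, while the median over all clones was 0.152.

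GAPDH ratios were nearly all positive. Of the 74 values 70 lay above 0 and 20 lay above 1, and the 4 values below 0 all belonged to clone G. Of the 20 values above 1, 10 came from the 16 values on the pepper arrays. The median log2 ratio of an array over all clones lay between -0.077 and -0.022 after the authors' quantile normalization.

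Clone C gave the highest ratios. Its values were 1.01 on the measured tomato array, 1.79 and 1.34 in pepper, 1.03 and 0.78 in tobacco, 1.04 on the measured N. benthamiana array, and 1.24 and 0.81 in petunia (replicates 1 and 2, in that order here and below). It was above 1 on 6 of its 8 arrays, and on every one of them it ranked first or next to first among the 8 GAPDH clones.

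Clone E was close to 1 on both tobacco arrays. It measured 0.77 and 0.35 in tomato, 1.62 and 1.07 in pepper, 1.04 and 1.09 in tobacco, 0.99 and 0.76 in N. benthamiana, and 0.87 and 0.65 in petunia. Among the 5 clones measured on all 10 arrays (B, D, E, G and H), clone E was the highest on 6.

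Clone B followed a similar course. It measured 0.76 and 0.36 in tomato, 1.58 and 1.06 in pepper, 0.80 and 0.75 in tobacco, 0.86 and 0.48 in N. benthamiana, and 1.12 and 0.64 in petunia. Its tobacco arrays lay close together, and its replicates in the other species differed by 0.38 or more.

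Clone H had its highest ratios in pepper and N. benthamiana. It measured 0.57 and 0.31 in tomato, 1.42 and 0.75 in pepper, 1.01 and 0.49 in tobacco, 1.38 and 0.77 in N. benthamiana, and 1.14 and 0.41 in petunia. Its replicates lay farther apart than those of clone E in every species but tomato.

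Clone F stood out by its contrast between pepper and the rest. It measured 0.69 on the measured tomato array, 1.69 and 1.34 in pepper, 0.47 and 0.64 in tobacco, 0.79 on the measured N. benthamiana array, and 0.38 and 0.36 in petunia. The lower pepper array was above all of its other arrays.

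Clone A was intermediate. It measured 0.64 on the measured tomato array, 1.17 and 0.73 in pepper, 0.55 and 0.45 in tobacco, 0.28 on the measured N. benthamiana array, and 0.72 and 0.53 in petunia. It passed 1 on a single array, pepper replicate 1.

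Clones D and G gave the lowest ratios on average, though not on every array. Clone D measured 0.40 and 0.089 in tomato, 0.92 and 0.67 in pepper, 0.098 and 0.11 in tobacco, 0.51 and 0.018 in N. benthamiana, and 0.42 and 0.18 in petunia. Clone G measured 0.23 and -0.069 in tomato, 0.80 and 0.46 in pepper, 0.58 and -0.25 in tobacco, 0.42 and -0.50 in N. benthamiana, and 0.29 and -0.23 in petunia. Clone D stayed above 0 throughout, whereas clone G was above 0 on all replicate 1 arrays and below 0 on every replicate 2 array except pepper.

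**Figure D1:**
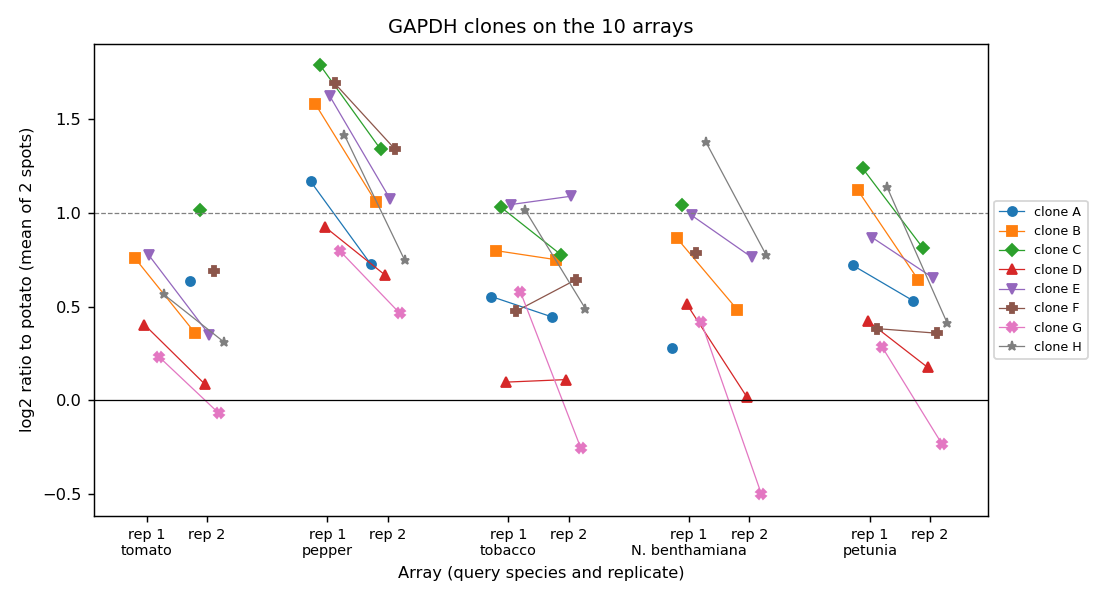
The plot of GAPDH values by array shows the log2 ratio to potato (vertical axis, mean of 2 spots) of each of the 8 clones on the 10 arrays (horizontal axis, query species and replicate), with a line joining the replicates of a species and the dashed line marking a log2 ratio of 1. Replicate 1 lies above replicate 2 for most clones, and pepper replicate 1 is the highest array of every clone. Of the 8 arrays with all 8 clones, clone D is among the 2 lowest on 6 and clone G on 7.

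Against potato, GAPDH was called in the positive direction in all 5 query species and in the negative direction in none, while the share of all clones called negative was 25.1% for tomato, 28.5% for pepper, 29.4% for tobacco, 31.1% for N. benthamiana and 29.7% for petunia. In pepper 7 of 8 clones passed (limma, adjusted p under 0.05), against 27.2% of all clones tested that were called positive, with a median over the 8 clones of 1.20 against -0.036 for all clones. In tobacco 6 of 8 passed (28.7% of all clones), with a median of 0.65 against -0.025, and in petunia 5 of 8 passed (28.7%), with a median of 0.69 against -0.042. In N. benthamiana 3 of the 5 clones that could be tested passed (29.1%), with a median of 0.67 against -0.048, and in tomato 2 of 5 passed (25.9%), with a median of 0.44 against -0.014. With all arrays the share of GAPDH clones called positive was above that of all clones in every species. This turned when 1 array was left out in every species but pepper. Without its replicate 1 array, GAPDH had 1 of 8 clones called in tobacco (20.1% of all clones), 1 of 8 in petunia (20.9%), 1 of 5 in N. benthamiana (24.2%) and 1 of 8 in tomato (15.1%). Tomato had 0 of 5 without its replicate 2 array (14.0%) and 1 of 5 without either tobacco array (25.2%).

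The pepper ratios of the clones that passed ran from 0.80 for clone D (SD 0.18, n = 2, limma adjusted p = 0.0035) to 1.56 for clone C (SD 0.32, n = 2, limma adjusted p = 0.00042), or 1.74-fold to 2.95-fold. Clone F in pepper was close to clone C, at 1.51 (SD 0.25, n = 2). Clones B and E were the pair that passed in tomato, at 0.56 each (SD 0.28 and 0.30, n = 2, limma adjusted p = 0.036 and 0.025). They also passed in every other species. Clone H reached 1.08 in N. benthamiana (SD 0.43, n = 2, limma adjusted p = 0.0047) and passed everywhere but in tomato, where it measured 0.44 (SD 0.18, n = 2, limma adjusted p = 0.164).

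Clone D passed in pepper alone of the 5 species, at 0.10 to 0.30 in the others. Clone G passed in none, and its pepper value of 0.63 (SD 0.24, n = 2) had a limma adjusted p of 0.067, which became 0.028 with the replicate, and so the shared potato extract, as a random block. Clone F did not pass in petunia (0.37, SD 0.017, n = 2, limma adjusted p = 0.081). Clones A, C and F could not be tested in tomato or N. benthamiana, where each had 1 array. With the replicate as a fixed block in limma, clone G in pepper (adjusted p = 0.0031), clone H in tomato (adjusted p = 0.012) and clone F in petunia (adjusted p = 0.046) passed as well. That fit takes out the spread of the potato extracts, which is part of the error of a comparison with potato. These p-values can therefore be too small. The fit called positive 32.9% of all clones in pepper, 31.8% in tomato and 34.0% in petunia.

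**Figure D2:**
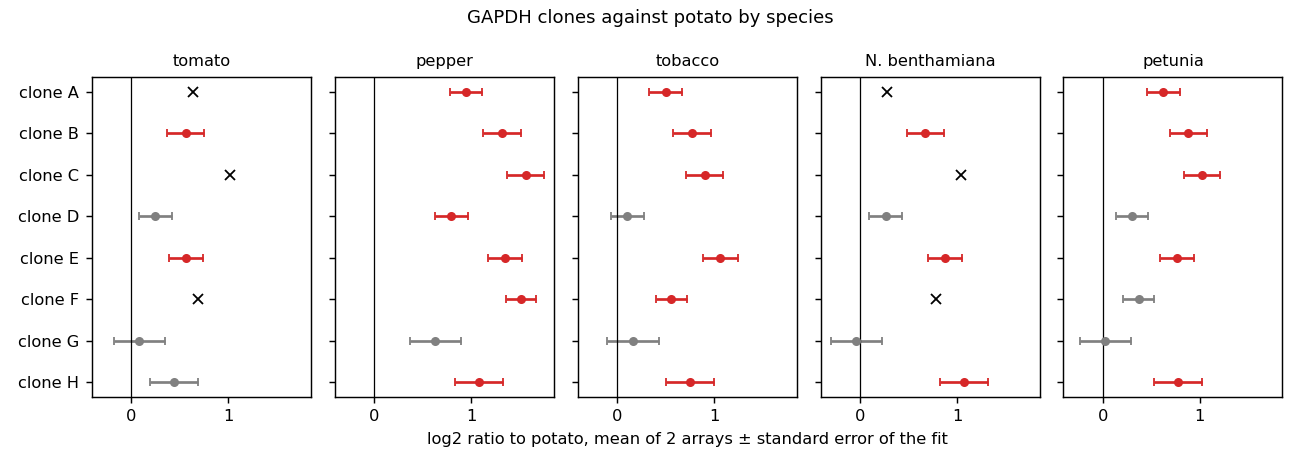
The plot of GAPDH clones by species gives the log2 ratio to potato (horizontal axis, mean of 2 arrays with the standard error of the limma fit) for each clone (vertical axis) in each query species, in red where the adjusted p was under 0.05 and in grey otherwise, with a cross for a clone measured on a single array. Pepper holds the values farthest to the right, and clone G is grey in all 5 panels.

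Over the mean of the 5 query species, 7 of 8 GAPDH clones were called positive, against 38.7% of all clones, and none negative. The mean log2 ratio was 1.11 for clone C (SE 0.0995), 0.92 for clone E (SE 0.0792), 0.84 for clone B (SE 0.0865), 0.82 for clone H (SE 0.11), 0.78 for clone F (SE 0.0843), 0.60 for clone A (SE 0.0893) and 0.34 for clone D (SE 0.0756), with adjusted p in limma between 3.8e-06 and 0.0022. Clone G had 0.17 (SE 0.118, limma adjusted p = 0.203). The 5 arrays of a replicate share their potato extract, so only 2 potato extracts stand behind these means. In a fit with replicate as a random block the same number of clones, 7, was called positive (33.7% of all clones), with adjusted p of 0.02 for clone D and 0.323 for clone G. Clone G passed only with a fixed block (limma adjusted p = 0.028, with 40.8% of all clones called positive). That block leaves the spread between the 2 potato extracts out of the error. The means of clones A, C and F rest on 8 arrays, with tomato and N. benthamiana from 1 array each, and leaving out tomato replicate 2 or N. benthamiana replicate 1 left those clones without a value for that species and 4 clones called.

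Replicate 1 gave higher GAPDH ratios than replicate 2. This held in 31 of the 34 combinations of clone and species with both arrays, with a median difference of 0.37 on the log2 scale. It held for all clones with both arrays in tomato (5 clones, median difference 0.32), pepper (8 clones, 0.44), N. benthamiana (5 clones, 0.50) and petunia (8 clones, 0.34). In tobacco it held for 5 of 8 clones, with a median difference of 0.078. Over all clones the median difference between replicates was 0.013 to 0.038 in the 5 species, with an SD over clones of 0.36 to 0.60. In each species the median GAPDH difference was smaller than that SD. The share of all clones with the higher ratio in replicate 1 was not counted. The mean of the 5 clones with values on all arrays was 0.82 over the replicate 1 arrays and 0.42 over the replicate 2 arrays. The potato extract and the query extracts both changed with the replicate, and their parts in this difference cannot be told apart.

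Pepper was the query species with the highest mean GAPDH ratio for every clone. Within a replicate, pepper was the highest array in 14 of 16 sets of clone and replicate. The exceptions were clone E in replicate 2, where tobacco was higher by 0.015, and clone H in replicate 2, where N. benthamiana was higher by 0.026. The sets of a replicate share the same pepper array, and the share of all clones with pepper highest was not counted. The mean of the 5 clones was 1.03 in pepper (1.27 and 0.80), 0.57 in tobacco (0.71 and 0.44), 0.57 in N. benthamiana (0.83 and 0.31), 0.55 in petunia (0.77 and 0.33) and 0.38 in tomato (0.55 and 0.21). Tobacco, N. benthamiana and petunia lay close together, well inside the gap between their replicates.

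Below pepper the order of the species depended on the clone. Tomato was lowest for clones B, E and H, tobacco for clone D and N. benthamiana for clone G. Among the 3 clones tested in pepper, tobacco and petunia only, petunia was lowest for clone F and tobacco for clones A and C.

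The F test among the 5 query species called none of the 5 clones with values on all arrays (limma adjusted p 0.15 to 0.52), against 35.6% of all clones, and none had an unadjusted p under 0.05. The replicate numbers pair the arrays through the shared potato extract, and in a fit with replicate as a fixed block clones B, D, E and H were called (adjusted p 0.027 to 0.043, with 64.4% of all clones called). Clone G had an adjusted p of 0.073 in that fit. With a random block clones B and E were called (adjusted p = 0.043 and 0.036, with 61.3% of all clones called). Since most clones on the array were called in the blocked fits, 4 of 5 and 2 of 5 are not a result particular to GAPDH.

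Over the 10 pairs of query species, 59 combinations of clone and pair could be tested and 2 were called, against 12.7% of all such combinations. Both were differences of clone F. Its log2 ratio was higher in pepper than in petunia by 1.14 (SE 0.225, limma adjusted p = 0.0175), where 13.8% of all clones were called. Its log2 ratio was higher in pepper than in tobacco by 0.96 (SE 0.225, limma adjusted p = 0.036), where 12.2% of all clones were called. If positive is brighter in potato, the clone F signal relative to potato was 2.21-fold lower in pepper than in petunia and 1.94-fold lower than in tobacco, and with the sign turned it was higher by the same folds. Both calls were lost when pepper replicate 1, petunia replicate 1 or petunia replicate 2 was left out, and 1 was lost when either tomato array, either tobacco array or pepper replicate 2 was left out.

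In the 26 combinations that involve pepper, the mean was higher in pepper in all 26. They share the same 2 pepper arrays, and the share of all clones higher in pepper was not counted. The difference ran from 0.55 to 0.79 against tomato, from 0.28 to 0.96 against tobacco, from 0.0065 to 0.67 against N. benthamiana and from 0.30 to 1.14 against petunia. The median over all clones was 0.048 for pepper minus tobacco, 0.038 for pepper minus N. benthamiana and 0.056 for pepper minus petunia. For tomato minus pepper it was 0.062, so there the median was lower in pepper. Of the 26 combinations, 9 had an unadjusted limma p under 0.05, while none of the 33 combinations without pepper did. Over all clones this held in 2789 of 8739 for pepper against tomato and 2515 of 8615 against tobacco. Against N. benthamiana it held in 2362 of 8442 and against petunia in 2530 of 8441. The 9 of 26 lie near these shares and are not a result particular to GAPDH. Without pepper the shares of all clones ran from 1067 of 8719 (tobacco and N. benthamiana) to 3269 of 8951 (tomato and petunia). Clone H hardly differed between pepper and N. benthamiana (0.0065, 95% interval -0.78 to 0.79). That interval also allows differences of the size seen in the other clones. On pepper replicate 2 alone, clone H (0.748) lay below its means in tobacco (0.751), petunia (0.777) and N. benthamiana (1.075). Those means include the replicate 1 arrays, which gave higher ratios. On the replicate 2 arrays alone, clone H measured 0.49 in tobacco, 0.41 in petunia and 0.77 in N. benthamiana. Within that replicate only N. benthamiana was above pepper.

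With the replicate as a fixed block, 14 combinations were called, against 26.8% of all combinations. The ratio in pepper was higher than in tomato in 4 of 5 clones (33.2% of all clones called in either direction), higher than in tobacco in 4 of 8 (28.9%), higher than in petunia in 3 of 8 (29.9%) and higher than in N. benthamiana in 2 of 5 (27.3%). The remaining call was clone H, lower in tomato than in N. benthamiana by 0.64 (adjusted p = 0.021 in the blocked limma fit, with 36.3% of all clones called). With a random block 10 combinations were called (24.8% of all). All but that tomato difference of clone H involved pepper in both blocked fits.

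**Figure D3:**
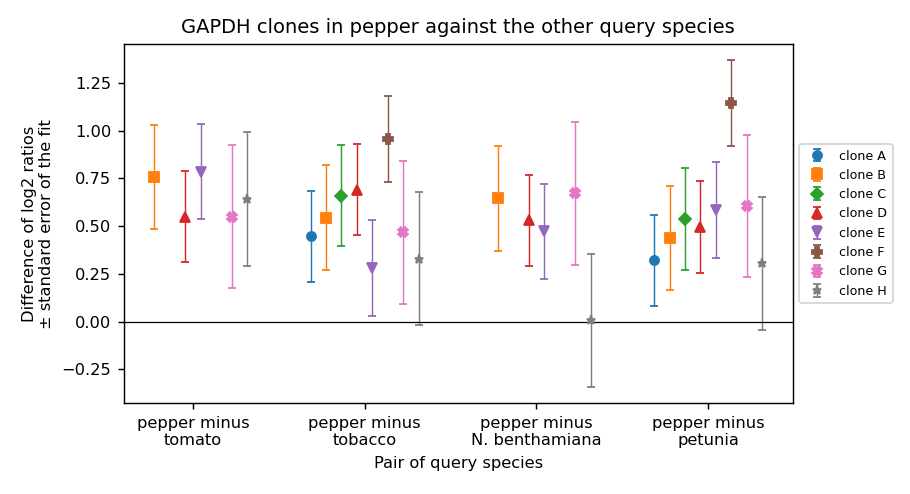
The plot of pepper against the other query species shows the difference of log2 ratios (vertical axis, with the standard error of the limma fit) of each testable GAPDH clone in the 4 pairs of species (horizontal axis). All points lie above 0, from 0.0065 for clone H against N. benthamiana to 1.14 for clone F against petunia.

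The clones did not agree in level. The SD over the 5 clones with values on all arrays was 0.19 to 0.55 per array, with a mean of 0.37, and the lowest and highest of these 5 clones lay 0.43 to 1.34 apart. For comparison, the SD of the mean of the 5 clones over the 10 arrays was 0.32. Of the sum of squares of these 50 values, 43.9% lay between clones, 23.0% between species and 19.8% between the 2 replicates. A further 6.65% lay in the clone by species pattern, 2.23% in clone by replicate and 0.99% in species by replicate, with 3.45% in the rest. These shares describe the values and were not tested.

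The order was kept for some clones and not for others. Over the 8 arrays with all 8 clones, clone C ranked 7 to 8 from the lowest and clone B 5 to 6, while clone A ranked 1 to 6, clone F 2 to 7 and clone H 3 to 8. Clones D and G were the lowest pair of the 5 on all 10 arrays, clone G being the lowest on 9. Relative to the mean of the 5 clones on the same array, clone G lay at -0.45 on average (SD 0.20 over 10 arrays) and clone D at -0.28 (SD 0.15). Clone E lay at 0.30 (SD 0.16), clone B at 0.22 (SD 0.11) and clone H at 0.20 (SD 0.20). Clones B and E were above that mean on every array and clones D and G below it on every array.

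Of the 28 pairs of clones, 10 kept the same sign of difference on every array they shared. Clone C exceeded clone G by 0.88 on average (0.45 to 1.08 over 8 arrays) and clone D by 0.75 (0.53 to 0.93). Clone E exceeded clone G by 0.75 (0.42 to 1.34 over 10 arrays). Clone C also exceeded clone A (by 0.28 to 0.76) and clone B (by 0.026 to 0.65) on all 8 arrays. The other 18 pairs were not separated in this way. Clone B minus clone H, for example, averaged 0.017 and ran from -0.51 to 0.31.

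**Figure D4:**
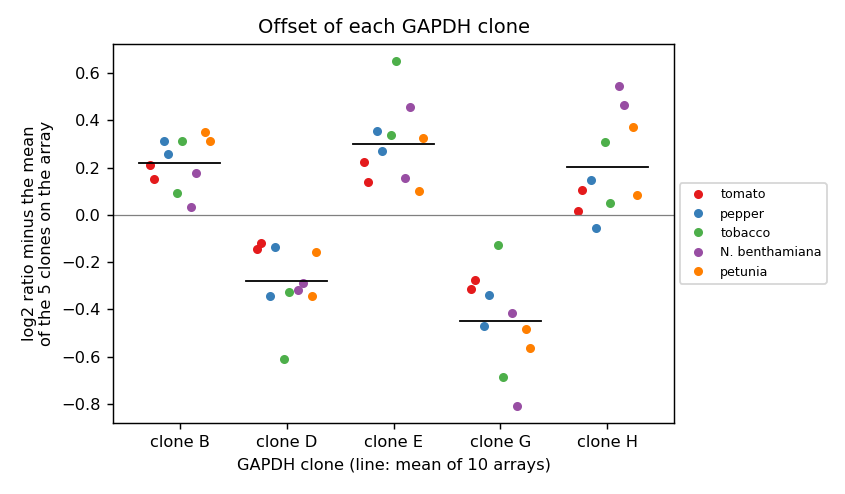
The plot of clone offsets shows, for the 5 GAPDH clones with values on all 10 arrays (horizontal axis), the log2 ratio minus the mean of the 5 clones on the same array (vertical axis), colored by query species, with a line at the mean of the 10 arrays. Clones B and E lie above 0 and clones D and G below 0 on every array, with means from -0.45 for clone G to 0.30 for clone E.

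Over the arrays the ratios of all pairs of clones correlated positively, some of them weakly. Pearson's r between 2 clones over the 8 or 10 arrays they shared was 0.29 to 0.89 with a median of 0.70. It was highest for clones C and D (0.89 over 8 arrays) and lowest for clones A and H (0.29 over 8 arrays). The arrays share potato extracts and come in pairs of a species, so these values are a description only. Clones C and D thus followed each other closely while differing in level by 0.75.

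The spread among GAPDH clones lay near the middle of the range for genes with several clones. Of 28 genes with a single symbol and at least 4 clones measured on all arrays, GAPDH ranked at place 13 from the smallest mean SD over clones (0.37). The range over these genes was 0.18 to 1.22. METK1, which encodes S-adenosylmethionine synthase, had 0.30 over 6 clones at a mean ratio of 0.61.

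The genes with the profile closest to the mean of the 5 GAPDH clones were sought among 367 other genes with a single symbol and values on all arrays. By root mean square difference these were LOC102595943 (0.216 on the log2 scale, 4 clones), LOC102577476 (0.239), EI1 (0.24), LOC102577677 (0.245) and LOC102578519 (0.25, 4 clones). By Pearson's r over the 10 arrays, which ignores the level, they were LOC102578519 (0.96), LOC102577433 (0.95), LOC102577445 (0.90), LOC102601464 (0.87) and LOC102598087 (0.86). LOC102578519 was on both lists. The probe table gives no product for these symbols.

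Other enzymes of sugar breakdown on the array were mostly positive as well. Under 6 symbols 9 clones were found, of which 7 were called positive (38.7% of all clones) and none negative over the mean of 5 species, with a median of 0.40 against -0.027 for all clones. The clones not called had means of 0.12 and -0.081. In a fit with a random block 6 were called (33.7% of all clones). PK, pyruvate kinase, which forms pyruvate in the last step of glycolysis, had the highest mean, 1.20 (SE 0.0646), and lay above 0 on all 10 arrays (0.54 to 1.60). PDHE1-A, a subunit of the pyruvate dehydrogenase that passes pyruvate on to acetyl-CoA, followed at 0.77 (SE 0.0752) in the higher of its 2 clones. The other PDHE1-A clone had 0.29 (SE 0.0807) and was not called with the random block. The PK ratio was 1.52 in pepper, 1.51 in tobacco and 1.53 in N. benthamiana, and 0.73 in both tomato and petunia.

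From the Calvin cycle, where plastid GAPDH works, the table held only transketolase (TK) under a single symbol. Its 2 clones were both called negative, at -1.35 (SE 0.134) and -0.83 (SE 0.0735) over the mean of 5 species, where 41.3% of all clones were called negative, and also with the random block. Both TK clones lay below 0 on all 10 arrays. No clone carried GAPA, GAPB, GAPC or GAPN, names used for plant GAPDH genes, as its single symbol.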

How the data were processed

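The 10 arrays each compared a query sample (Cy3) with the potato reference (Cy5). Per the methods, the authors used GenePix, left out any spot missing in a channel, with more than 30% saturated pixels or smaller than 70 µm, took off the local background and applied quantile normalization in limma, a tool the submitters' processing notes also name. Its version is not stated there. The deposited values are log2 ratios, 1 per spot, without channel intensities. All 181620 lie within 0.0015 of the negative log2 of a ratio with 2 decimals.

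Duplicate spots were paired by the slide layout, which fits all 905 pairs sharing a sequence record, and averaged. Symbols came from the probe table, in which 815 clones have a single symbol. Every column was assigned to an array. The tests were run in limma 3.58.1 under R 4.3.3 (lmFit on all 10 arrays with 1 coefficient per species, eBayes, Benjamini-Hochberg over all clones at 0.05) over clones with values on both arrays of a species, for each species (mean of 5) or on all arrays (F test). Intervals are 95%. The fits were also tested on simulated data with known changes. Counting and plotting used Python 3.11.15 with pandas 2.3.3, scipy 1.17.1 and matplotlib 3.10.9.

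Every GAPDH clone was named. Genes most like it were the 5 with the smallest difference and the 5 with the highest correlation, and at most 4 of each other list, matched by symbol alone, were named by their largest ratios past the threshold. The members and lists were chosen with earlier results of these data known.

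Same-numbered arrays share a potato extract per the labels, and their deviations from the species means correlated at 0.29 to 0.68 in the 10 pairs of species, so the numbers pair the arrays. The random block correlation was 0.351. Alternatives covered the block, centring, scaling, spots, missing values, prior, threshold and each array left out. The number of arrays limits the precision.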

Additional observations from a re-analysis of the deposited data

Results flagged for a closer look

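Of the differences in log2 ratio between query species, clone F in pepper against petunia (1.14 on the log2 scale, limma adjusted p = 0.0175) and clone F in pepper against tobacco (0.96, limma adjusted p = 0.036) were singled out, because the test of the difference itself passed its threshold. Both are differences of the ratio, with the direction of the ratio unstated. Both pepper arrays of clone F, 1.69 and 1.34, lay above its petunia arrays, 0.38 and 0.36, and its tobacco arrays, 0.47 and 0.64. On these same arrays the first difference was 1.05 from the first spot alone and 1.24 from the second, and the second was 0.92 and 0.99. With the replicate as a fixed block the adjusted p values in limma were 0.0048 and 0.011, where 29.9% and 28.9% of all clones were called. Both calls were lost when pepper replicate 1 or either petunia array was left out. They were 2 of the 59 combinations tested, against 12.7% of all combinations.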

How the results depend on the processing

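The replicate block raised the clones called among the 5 query species from 0 to 2 (random) and 4 (fixed), and the calls in pairs of species from 2 to 10 and 14, with the shares of all clones given above. It moved no other count of calls by over 1.5 times. Keeping only the 5 clones with values on all arrays, which leaves fewer clones to count, gave 4 calls in pepper (28.9% of all clones positive), 3 in tobacco (30.6%), 3 in petunia (30.7%), 4 over the mean of 5 species (40.6%) and 0 in pairs (13.3%). Both calls in pairs were of clone F, which this filter removes, so their loss says nothing about how stable they are. At an adjusted p under 0.01 the calls were 0 in tomato (18.0%), 3 in tobacco (20.7%), 3 in petunia (20.9%) and 0 in pairs (4.03%). With 1 array left out in turn, calls ran from 0 to 2 in tomato, from 1 to 6 in tobacco, from 1 to 5 in N. benthamiana, from 1 to 5 in petunia, from 4 to 7 over the mean of 5 species and from 0 to 2 in pairs. In tomato, tobacco, N. benthamiana and petunia the lowest of these counts fell below the share of all clones, as given above. The 2 calls in tobacco without tobacco replicate 2 stood against 18.1% of all clones and the 5 in N. benthamiana without its replicate 2 against 20.7%. The 4 calls over the mean of 5 species stood against 38.6% without N. benthamiana replicate 1 and 36.7% without tomato replicate 2. The 0 calls in pairs stood against 8.30% without pepper replicate 1, 8.59% without petunia replicate 1 and 9.25% without petunia replicate 2. Clone G passed in pepper with either block, after centring and scaling, with values from both spots only and without either N. benthamiana array, and it changed sign in other species. With 1 array left out in turn it ran from -0.069 to 0.23 in tomato, from -0.25 to 0.58 in tobacco, from -0.50 to 0.42 in N. benthamiana and from -0.23 to 0.29 in petunia, with the change of sign when tomato, tobacco or petunia replicate 1 or N. benthamiana replicate 2 was left out. It also changed sign in petunia with the second spot alone (-0.047) and in N. benthamiana after centring (0.030), after centring and scaling (0.066) and with the second spot alone (0.051). The cause was not tested. No other single-clone ratio changed sign.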

Other observations

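PSBR, a photosystem II subunit of leaf chloroplasts, was the marker of leaf tissue on the array under a single symbol. Of its 6 clones 3 could be tested over the mean of 5 species. Of these, 2 were called positive (38.7% of all clones), at 1.62 (SE 0.0905) and 1.87 (SE 0.0905), and the third had -0.13 (SE 0.0639, limma adjusted p = 0.096). A ratio between leaf samples does not give the level of a marker, so the labeled tissue could not be checked in these values.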
